A study of Mus musculus with 2 samples.

Results

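Taste receptor genes were examined in medullary thymic epithelial cells of the mouse. The members were all genes of the count table whose symbol begins with Tas1r or Tas2r, which gave 43 of the 55487 genes listed. There were 3 Tas1r genes and 40 Tas2r genes, and 5 of the Tas2r genes are annotated as pseudogenes. Together they held 30072 UMIs (unique molecular identifiers, one per captured transcript) in 9185 annotated cells, and 28310 of these UMIs, or 94.1%, lay in the 4118 cells that the authors annotated as Tuft.

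Tas1r and Tas2r proteins are receptors of the cell surface that couple to G proteins. On the tongue, Tas1r1 pairs with Tas1r3 to sense amino acids, Tas1r2 pairs with Tas1r3 to sense sugars, and Tas2r proteins sense bitter compounds. Their signal runs through the G protein subunits Gnat3 (gustducin), Gnb3 and Gng13 to the phospholipase Plcb2, the calcium channel Itpr3 of the endoplasmic reticulum and the cation channel Trpm5. Tuft cells of the airway, gut and thymus are chemosensory epithelial cells that use the same chain, depend on the transcription factor Pou2f3 and make Il25, leukotrienes and acetylcholine. Those of the thymus belong to the medullary cells that take on the gene programmes of peripheral cell types.

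The study hashed 7 thymus samples with barcoded antibodies and sequenced them in 1 droplet run with 3′ chemistry, after removal of CD45+ cells and a sort for Pdpn- CD104- cells labelled mTEClo. The 3 control samples (Hnf4ctrl) carried 1 floxed and 1 intact copy of Hnf4a and 1 intact copy of Hnf4g, written Hnf4a(fl/+) with Hnf4g(+/-). The 4 mutant samples (Hnf4dTEC) were Hnf4a(fl/fl) with Hnf4g(-/-). All 7 were of the C57BL/6 strain and carried Foxn1(cre/+), a recombinase driven in thymic epithelium as a whole and not in Tuft cells alone. Hnf4a and Hnf4g are nuclear receptors that drive intestinal and hepatic genes. The controls had lost 1 copy of each gene, so they are not wild type. The labels give no age and do not say whether each sample came from a separate animal, so p-values measure the spread between these samples, which may be technical.

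Each sample had 801 to 1652 annotated cells with 10127838 to 25821970 UMIs, and 415 to 837 of these cells were Tuft, at a median of 11014 to 13725 UMIs per Tuft cell. Of 16 Tuft identity genes, 13 were highest in the Tuft class, and Trpm5 was found in 98.0% and Pou2f3 in 93.8% of its cells. Hnf4g stood at 116 to 122 CPM (UMIs of the gene per 1000000 UMIs of the cells summed) over all cells of the control samples and at 78.1 to 88.4 CPM in the mutant samples, and Hnf4a at 1.68 to 3.18 against 0.673 to 2.27 CPM. In Tuft cells Hnf4g stood at 52.1 to 63.0 CPM in control and 41.7 to 55.4 CPM in mutant samples, so the groups overlapped there. Hnf4a in Tuft cells rested on 1 to 5 UMIs per sample, at 0.377 to 0.596 against 0.114 to 0.582 CPM. Reads from the 3′ end need not cover the deleted exons, so these levels do not check the deletions.

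The genes lay at 6 places in the genome (mm10, GENCODE M21). A cluster of 29 Tas2r genes on chromosome 6, from 131629823 to 133096015, held 78.5% of the receptor UMIs of Tuft cells, and is called the distal cluster here. A proximal group of 8 Tas2r genes, at chr6:40491233-42435464, held 7.07%. Tas2r118, at chr6:23969161-23970060, held 2.44%. The 3 Tas1r genes on chromosome 4 held 11.8%, Tas2r119 on chromosome 15 held 0.208% and Tas2r134 on chromosome 2 held 0.0212%. All 40 Tas2r genes have 1 exon, and 0 bases of 3′ untranslated region is the median of their annotation, against 484 bases for the Tas1r genes. Reads that end beyond an annotated gene end are not counted, so levels of different receptors are compared here only as counted UMIs.

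The closest relative of a member among the others was 67.2% identical at the median, and 0 members had a relative over 90%. Tas2r110 and Tas2r123 were the closest pair, at 86.4%, and only these 2 members shared a stretch of 91 bases with another member (30 stretches), which bears on whether single reads can be told apart. Tas2r117 shared 230 such stretches with Gm18690, a pseudogene of the distal cluster that is no member, at 92.4% identity. The UMIs of Tas2r110, Tas2r123 and Tas2r117 are therefore uncertain. Tas1r2 overlaps the annotated gene Gm21969 on the same strand, so its few UMIs are uncertain too, and Tas1r3 overlaps Dvl1 on the opposite strand.

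Upstream sequence is shown for the receptors that the results below turn on, since their genes were detected together to different degrees. Tas2r105 was the most abundant member and Tas1r3 the member whose detection did not follow the others. The 250 bases before their RefSeq start (GRCm38.p6), at chr6:131687464-131687713 and chr4:155863354-155863603, both on the minus strand, are printed 5′ to 3′. They hold no octamer ATGCAAAT on either strand, the sequence recognised by POU factors such as Pou2f3, and so carry no capitals.
Tas2r105: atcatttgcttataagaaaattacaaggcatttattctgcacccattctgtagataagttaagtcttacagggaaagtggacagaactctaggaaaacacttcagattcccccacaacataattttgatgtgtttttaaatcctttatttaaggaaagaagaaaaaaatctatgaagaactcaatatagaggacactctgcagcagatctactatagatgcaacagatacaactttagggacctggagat
Tas1r3: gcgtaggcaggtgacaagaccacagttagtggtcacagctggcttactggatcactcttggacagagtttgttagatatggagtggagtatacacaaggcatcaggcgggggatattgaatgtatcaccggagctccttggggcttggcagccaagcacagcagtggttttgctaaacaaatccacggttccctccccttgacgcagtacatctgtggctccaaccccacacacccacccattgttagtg

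Of the 43 members, 34 had a RefSeq promoter entry, which runs from 250 bases before to 50 bases after the start. Each member counts here with 1 entry, the one nearest its annotated start, while the shares for all genes count every entry listed. The octamer, on either strand, was found in 7 of 34 entries (20.6%), against 570 of 32851 entries for all genes (1.74%). It was found in 5 of 8 members of the proximal group, in Tas2r118, and in 1 of the 20 members of the distal cluster that have an entry. The 7 matches with their flanks follow, 5′ to 3′ along each gene, with the octamer or its reverse complement ATTTGCAT in capitals.
Tas2r118: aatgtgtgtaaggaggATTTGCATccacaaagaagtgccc
Tas2r137: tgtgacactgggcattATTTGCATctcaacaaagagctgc
Tas2r108: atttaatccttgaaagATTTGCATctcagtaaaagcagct
Tas2r144: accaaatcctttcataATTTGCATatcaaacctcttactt
Tas2r135: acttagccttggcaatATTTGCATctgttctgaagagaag
Tas2r126: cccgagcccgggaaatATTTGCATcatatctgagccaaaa
Tas2r107: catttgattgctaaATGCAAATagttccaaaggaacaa

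In 6 of these 7 the reverse complement lay on the gene's strand, 124 to 194 bases before the start, and in Tas2r107 the octamer itself lay 236 bases before it. E-boxes (CANNTG) were found in 82.4% of member promoters against 72.3% of all, and TATAAA in 29.4% against 13.6%. These are matches of letters, not measured binding, and no match says only that the letters are absent from this window.

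Receptor RNA was concentrated in Tuft cells. Pooled over samples, the summed receptors stood at 532 CPM in the Tuft class, and the other 14 classes lay between 6.67 CPM in ionocytes and 47.2 CPM in the class named Aire-adjacent. Over the 7 samples the Tuft level was 514 ± 79.2 CPM (SD, n = 7), with the lowest sample at 430 and the highest at 625. After each cell was thinned to 5000 UMIs, which removes differences in depth, 64.7% of Tuft cells had a receptor UMI, against 3.40% (95% exact binomial interval 1.82 to 5.75) of Transitional cells at the low end and 12.5% (7.17 to 19.8) of Muscle cells at the high end. Without thinning, 79.97% of Tuft cells had one, at a median depth of 12186 UMIs, and 13.2% of TA cells, at a median of 25336. Intervals cover counting error only. The classes were made from expression, so these differences are a description. Per sample, 89.9% to 97.0% of receptor UMIs lay in Tuft cells.

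**Figure D1:**
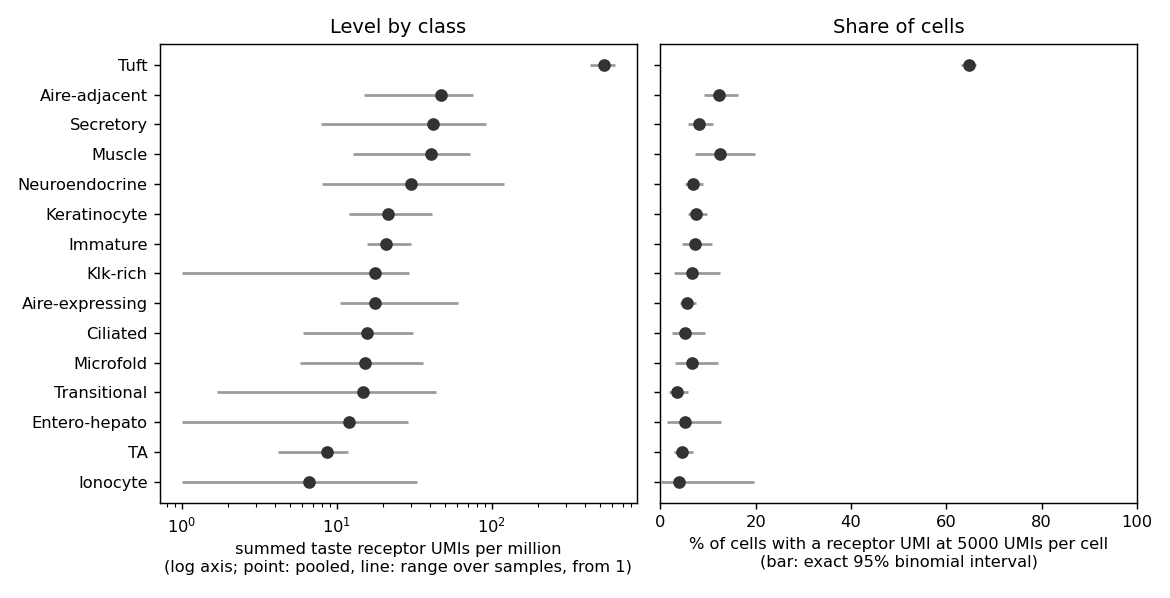
Left, summed taste receptor CPM in each annotated class on a log axis (point, pooled over samples; line, range over samples, drawn from 1). Right, the share of cells with a receptor UMI after thinning to 5000 UMIs per cell, with exact 95% binomial intervals; the Tuft class, at 532 CPM and 64.7% of cells, sits above all others.

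Outside Tuft cells the receptors kept a low level, and so did genes of the Tuft programme at their median. The summed receptors reached 1.25% to 8.88% of their Tuft level in the other classes, and the median of 25 Tuft identity and taste transduction genes reached 2.91% to 15.2% of theirs. These genes varied widely, and the highest of the 25 in a class reached from 56.7% of its Tuft level in Transitional cells to 239% in ionocytes. Of the 5067 cells outside the Tuft class, 734 had a receptor UMI, and 545 of those had exactly 1. The 72 cells with 5 or more receptor UMIs held 928 of the 1762 receptor UMIs found there. These 72 cells had a median of 25085 UMIs and Gnat3 at 1882 CPM, against 14026 UMIs and 36.5 CPM in the remaining cells outside Tuft, and 22.2% of them, against 2.76%, had a hash-tag pattern of more than 1 sample. The part of mixed droplets in these values was not tested.

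Tas1r1 had the widest spread over classes among the 8 members with at least 1000 Tuft UMIs. It stood at 27.7 CPM in Tuft cells, 10.4 CPM in Muscle cells and 10.1 CPM in Aire-adjacent cells, which is 37.6% and 36.3% of the Tuft level. It was found in 16 of 121 Muscle cells (13.2%, 7.75 to 20.6) and in 23 of 389 Aire-adjacent cells (5.91%, 3.79 to 8.74). Its Muscle level ranged from 0 to 21.5 CPM and its Aire-adjacent level from 0 to 20.2 CPM over samples. Tas1r3, its partner on the tongue, stood at 14.5% and 7.75% of its Tuft level in those classes. Gnat3 stood at 12.7% of its Tuft level in Muscle cells and at 5.71% in Aire-adjacent cells.

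Among 16788 genes outside the family, the 5 whose level over the 15 classes was most like the summed receptors were Rgs21 (Pearson r of log2(CPM + 1) 0.970), Gnat3 (0.9498), Gm33373 (0.946), Gm26797 (0.945) and Il25 (0.943). The 15 classes come from the same 7 samples, so this is a description. Rgs21 is a regulator of G protein signalling known from taste cells, and Il25 is the cytokine by which tuft cells act on lymphocytes. In Tuft cells, Gng13 stood at 5668 ± 404 CPM, Gnat3 at 2160.4 ± 287, Trpm5 at 622 ± 28.6, Pou2f3 at 378 ± 17.1, Plcb2 at 358 ± 37.7 and Itpr3 at 57.1 ± 9.11 CPM (SD, n = 7 for each). Itpr3 was not highest in Tuft cells, and reached 209% of its Tuft level in Muscle cells.

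The members differed widely in level. In Tuft cells 35 members had at least 50 UMIs in all and held 99.7% of the receptor UMIs, while 4 had 10 to 49 UMIs and 4 had fewer than 10. Values are given below as CPM in the Tuft cells of control samples 1, 2 and 3, and then of mutant samples 1, 2, 3 and 4. Of the members, 34 passed the filter on low counts for the test between genotypes. In that test (edgeR's quasi-likelihood test with Benjamini-Hochberg adjustment over all genes) 13 of 14760 genes passed an adjusted p of 0.05, which is 0.0881%, and 0 of the 34 members did.

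**Figure D2:**
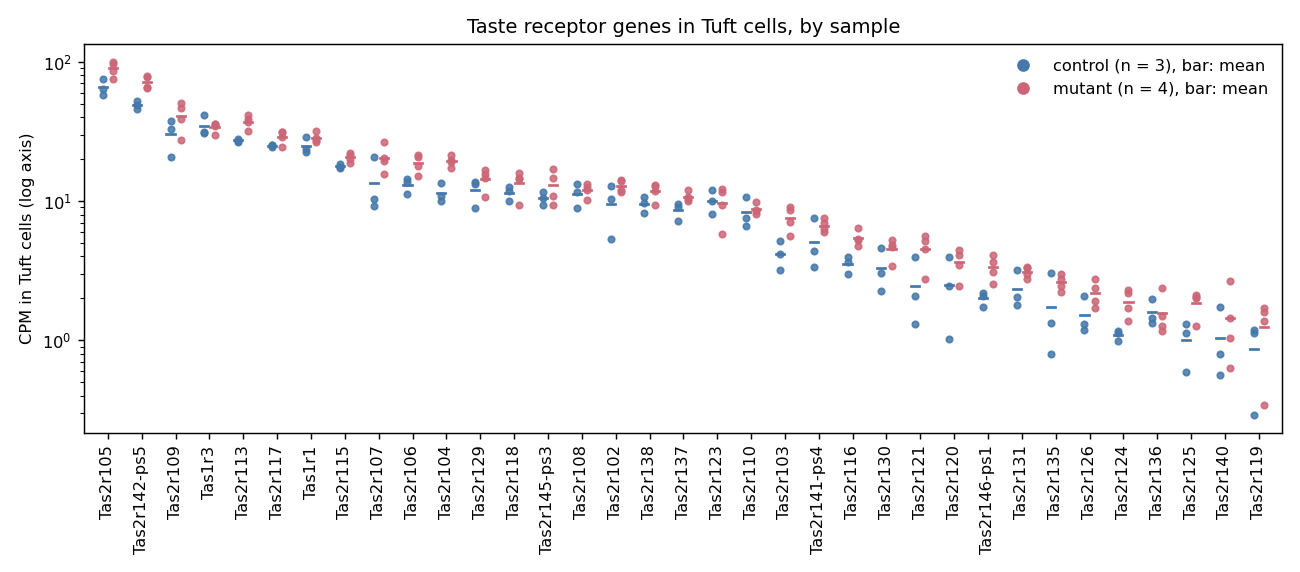
CPM in Tuft cells, on a log axis, of the 35 members with at least 50 UMIs, for each control sample (blue, n = 3) and each mutant sample (red, n = 4), with a bar at each group's mean. Levels run from 57.4 to 100.4 CPM for Tas2r105 down to 0.290 to 1.69 CPM for Tas2r119.

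The Tas1r genes were represented by the amino acid receptor subunits. Tas1r3 (ENSMUSG00000029072.3, chr4:155859268-155863362), the subunit that both Tas1r pairs share, stood at 31.5, 31.0 and 41.4 CPM in control samples and at 34.5, 36.0, 30.1 and 35.8 CPM in mutant samples. Tas1r1 (chr4:152027914-152038568), the amino acid partner, stood at 23.6, 22.4 and 29.0 CPM in control samples and at 31.7, 27.5, 28.5 and 26.6 CPM in mutant samples. The groups overlapped for both genes. The log2 fold change, mutant over control, was -0.04 (SE 0.11) for Tas1r3 and 0.18 (SE 0.10) for Tas1r1, and neither passed the test (adjusted p 0.953 and 0.665). Tas1r2, the sugar partner, had 23 UMIs in 11 Tuft cells, and 13 more UMIs over 6 other classes, of which 6 lay in Aire-expressing cells.

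The distal cluster of bitter receptors held the most abundant members. Tas2r105 (ENSMUSG00000051153.5, chr6:131686532-131687495), which responds to cycloheximide on the tongue, stood at 63.8, 57.4 and 75.6 CPM in control samples and at 100.4, 86.2, 75.0 and 97.3 CPM in mutant samples. Tas2r142-ps5 (ENSMUSG00000107594.1, chr6:132901963-132902891), an annotated pseudogene, stood at 45.9, 49.1 and 52.2 CPM in control samples and at 77.3, 78.7, 65.8 and 64.7 CPM in mutant samples. The groups overlapped for Tas2r105 by 1 mutant sample and did not overlap for Tas2r142-ps5. Their log2 fold changes were 0.44 (SE 0.11, adjusted p 0.262) and 0.54 (SE 0.088, adjusted p 0.0675). The pseudogene's closest relative among the members is Tas2r125, at 64.6% identity, and the 5 pseudogenes together held 16.3% of the receptor UMIs of Tuft cells.

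Tas2r109 stood at 33.0, 37.3 and 20.7 CPM in control samples and at 50.4, 47.0, 38.8 and 27.3 CPM in mutant samples. Tas2r113 stood at 26.4, 27.2 and 28.1 CPM in control samples and at 41.6, 38.8, 36.8 and 31.7 CPM in mutant samples. Tas2r117, whose UMIs may be split with those of Gm18690, stood at 25.1, 25.2 and 24.3 CPM in control samples and at 31.4, 28.7, 31.2 and 24.6 CPM in mutant samples. Of these bitter receptors, Tas2r113 had groups that did not overlap (log2 fold change 0.45, SE 0.094, adjusted p 0.163), and the lowest mutant value of Tas2r117 fell within its control range.

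Tas2r115 stood at 17.6, 18.5 and 17.2 CPM in control samples and at 22.1, 20.2, 18.9 and 21.4 CPM in mutant samples. Tas2r104 stood at 13.6, 10.9 and 10.00 CPM in control samples and at 19.7, 18.9, 17.2 and 21.4 CPM in mutant samples. Tas2r106 stood at 14.3, 13.7 and 11.3 CPM in control samples and at 20.9, 17.98, 15.1 and 21.5 CPM in mutant samples. For each of these the groups did not overlap. Tas2r104 had a log2 fold change of 0.74 (SE 0.13, adjusted p 0.0899), and its gene is the neighbour of Tas2r105, with 74.4% identity to it.

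Tas2r107 stood at 10.4, 20.9 and 9.27 CPM in control samples and at 20.4, 26.7, 19.4 and 15.6 CPM in mutant samples. Tas2r129 stood at 8.87, 13.7 and 13.2 CPM in control samples and at 15.6, 16.6, 10.6 and 14.5 CPM in mutant samples. Tas2r102 stood at 10.4, 12.9 and 5.36 CPM in control samples and at 13.9, 14.1, 11.7 and 12.1 CPM in mutant samples. In Tas2r107 and Tas2r102, 1 control sample stood apart from the other controls, and all of these genes overlapped between groups. The pseudogene Tas2r145-ps3 stood at 11.7, 10.5 and 9.42 CPM in control samples and at 14.6, 17.0, 10.9 and 9.30 CPM in mutant samples.

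The pair with shared stretches of sequence overlapped as well. Tas2r123 stood at 10.00, 11.9 and 8.11 CPM in control samples and at 9.34, 12.2, 11.6 and 5.82 CPM in mutant samples, and its log2 fold change was -0.02 (SE 0.24). Tas2r110 stood at 6.60, 10.7 and 7.53 CPM in control samples and at 9.88, 8.67, 8.12 and 8.43 CPM in mutant samples. Tas2r103 stood at 4.15, 5.17 and 3.19 CPM in control samples and at 8.60, 8.99, 5.60 and 7.12 CPM in mutant samples, with no overlap and a log2 fold change of 0.88 (SE 0.23, adjusted p 0.281).

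The remaining distal members lay below 8 CPM in every sample. The pseudogene Tas2r141-ps4 stood at 7.55, 4.37 and 3.33 CPM in control samples and at 6.96, 7.51, 5.95 and 6.25 CPM in mutant samples. Tas2r116 stood at 3.96, 2.98 and 3.62 against 6.41, 4.76, 5.26 and 5.38 CPM. Tas2r130 stood at 2.26, 4.57 and 3.04 against 5.22, 4.87, 3.43 and 4.65 CPM. Only Tas2r116 of these bitter receptors had groups that did not overlap. Tas2r121 stood at 2.08, 3.97 and 1.30 against 5.58, 5.18, 2.74 and 4.51 CPM. Tas2r120 stood at 2.45, 3.97 and 1.01 against 3.48, 4.13, 4.46 and 2.47 CPM. Tas2r146-ps1 stood at 2.08, 2.19 and 1.74 against 4.12, 2.54, 3.09 and 3.64 CPM. The last of these, a pseudogene, had groups that did not overlap.

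Tas2r131 stood at 3.21, 1.79 and 2.03 CPM in control samples and at 3.39, 3.28, 2.97 and 2.76 CPM in mutant samples. Tas2r124 stood at 1.13, 0.993 and 1.16 against 2.29, 1.37, 1.72 and 2.18 CPM. Tas2r136 stood at 1.32, 1.99 and 1.45 against 2.38, 1.27, 1.49 and 1.16 CPM. Of these, Tas2r124 had groups that did not overlap. Tas2r125 stood at 1.13, 0.596 and 1.30 against 2.11, 2.01, 1.26 and 2.03 CPM. Tas2r140 stood at 0.566, 0.795 and 1.74 against 2.65, 0.635, 1.03 and 1.45 CPM. At these levels a sample's value rests on few UMIs, since Tas2r125 and Tas2r140 had 85 and 73 UMIs in all Tuft cells. Tas2r114 had 32 UMIs in Tuft cells and 4 elsewhere, 1 each in Aire-adjacent, Ciliated, Keratinocyte and Neuroendocrine cells. Tas2r122 had 10 in Tuft cells and 2 in Neuroendocrine cells, and Tas2r111-ps2 had 2 in Tuft cells and 1 in Neuroendocrine cells.

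Bitter receptors outside the distal cluster reached at most 15.9 CPM in a sample. Tas2r118 (chr6:23969161-23970060) stood at 11.9, 9.93 and 12.6 CPM in control samples and at 14.4, 15.9, 9.38 and 14.7 CPM in mutant samples. Tas2r108 (chr6:40493529-40494541), which responds to denatonium on the tongue, stood at 8.87, 11.5 and 13.3 CPM in control samples and at 12.6, 11.9, 10.2 and 13.2 CPM in mutant samples. Tas2r138 (chr6:40612315-40613310), the mouse counterpart of the human phenylthiocarbamide receptor, stood at 9.62, 10.7 and 8.26 CPM in control samples and at 12.9, 11.7, 13.1 and 9.30 CPM in mutant samples. The groups overlapped for each of these.

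Tas2r137, next to Tas2r108, stood at 9.06, 9.54 and 7.24 CPM in control samples and at 9.98, 10.4, 12.01 and 10.6 CPM in mutant samples, with no overlap (log2 fold change 0.32, SE 0.15, adjusted p 0.574). Tas2r135 stood at 1.32, 0.795 and 3.04 against 2.47, 2.22, 2.97 and 2.76 CPM, and Tas2r126 at 2.08, 1.19 and 1.30 against 2.38, 1.90, 1.72 and 2.76 CPM. These neighbouring genes overlapped between groups. Tas2r119 on chromosome 15 stood at 1.13, 1.19 and 0.290 against 1.37, 1.69, 0.343 and 1.599 CPM and did not pass the filter on low counts. Tas2r143, the neighbour of Tas2r135, had 14 UMIs in Tuft cells and 1 each in Muscle, TA and Transitional cells. Tas2r144 had 7 UMIs and Tas2r134 had 6, all in Tuft cells. Tas2r139 had 1 UMI, in an Immature cell, and 0 of 4118 Tuft cells, which allows a level of up to 0.0564 CPM.

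While no member passed the test, the summed receptors were higher in each mutant sample than in any control sample. The summed receptors stood at 430, 453 and 434 CPM in control samples and at 625, 600, 520 and 539 CPM in mutant samples, with means of 439 ± 11.97 (SD, n = 3) and 571 ± 49.6 (SD, n = 4). The ratio of means was 1.30. In summed cells of a class, fewer cells with receptors and less RNA per cell cannot be told apart. Of the 34 tested members, 10 had higher CPM in every mutant sample than in every control sample, where 4.73% of all genes did, and 0 had lower, where 4.23% did. At an unadjusted p of 0.05, 14 of 34 were higher (3.93% of all genes) and 0 lower (4.81%). The log2 fold change was above 0 for 32 of 34 members and for 49.5% of all genes, and the median was 0.44 for the members and -0.00 for all genes. Most members were detected together in the same cells, as given below, so counts of members here and below are not counts of independent genes. All 14 members at an unadjusted p of 0.05 lie in the distal cluster, whose 26 tested members had a median of 0.46, while the 5 of the proximal group had 0.32 and the 2 Tas1r genes 0.07.

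The number of members called turned on the method. DESeq2 called 3 members (80 genes, 0.721%), namely Tas2r104, Tas2r105 and Tas2r142-ps5. Without the filter on low counts edgeR called 8 (470 genes, 1.53%), all in the distal cluster, and without cells of mixed hash-tag pattern it called Tas2r104 and Tas2r142-ps5 (16 genes, 0.109%). Leaving out control sample 3 brought Tas2r142-ps5 past the threshold, with an adjusted p of 0.0402, and leaving out mutant sample 4 brought Tas2r113 past it, with 0.0486. Summed over all annotated cells, 0 of 34 members were called (39 of 21187 genes, 0.184%), where the share of Tuft cells itself ranged from 31.1% to 55.6% over samples. All 34 had a log2 fold change above 0 there, as 50.9% of all genes did. At an unadjusted p of 0.05 edgeR had 7 members higher (2.33% of all genes) and 0 lower (4.31%), and 2 were higher without overlap between the groups (3.09%) and 0 lower (4.77%). DESeq2 (0.879% of genes), edgeR without a filter (0.124%), edgeR with the replicate number as a block (0.033%) and edgeR without cells of mixed hash-tag pattern (0.183%) each called 0 members in all cells. In the other 10 classes with enough cells no member passed the filter on low counts.

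Markers of other cells in Tuft libraries were compared between the genotypes. The microfold list summed to 645 to 769 CPM in control and 618 to 751 CPM in mutant samples, and the myeloid or B cell list to 345 to 455 against 331 to 445 CPM. The latter list includes Ptprc, which was highest in the Tuft class itself. The neuroendocrine list summed to 13.2 to 35.6 CPM in control and 17.9 to 310 CPM in mutant samples. The Aire-stage list summed to 184 to 204 CPM in control and 166 to 181 CPM in mutant samples, without overlap, and all 5 of its tested genes had a log2 fold change below 0, with 0 called. The other lists overlapped. The secretory list summed to 116 to 229 against 177 to 244 CPM, the ciliated list to 128 to 192 against 140 to 168 CPM and the keratinocyte list to 66.2 to 75.9 against 67.5 to 81.7 CPM. The immature list summed to 63.4 to 85.8 against 61.8 to 82.6 CPM and the thymocyte list to 3.77 to 5.85 against 3.78 to 4.65 CPM. Their part in the receptor values was not tested. The taste transduction list summed to 10484 to 11883 CPM in control and 11693 to 13284 CPM in mutant samples, and 0 of its 15 tested genes were called. The log2 fold change was above 0 for 14 of the 15, with a median of 0.15, where 49.5% of all genes were above 0. It was 0.43 for Rgs21 (adjusted p 0.359), 0.37 for Gnb3 (0.448), 0.31 for Itpr3 (0.404), 0.26 for Gnat3 (0.424) and -0.01 for Trpm5 (0.993). Of the 16 Tuft identity genes 1 was called, Vil1, an actin-bundling protein of microvilli, which fell by 0.92 on the log2 scale (adjusted p 0.0048), and of the 14 tuft effector genes 0 were called.

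Single Tuft cells carried several receptors at once. Of 3882 Tuft cells thinned to 5000 UMIs (236 shallower cells were left out), 64.7% had a receptor UMI, 40.6% had UMIs of 2 or more different receptors, and 14.3% of 5 or more. Thus 62.9% of the positive cells had more than 1 receptor. In 68 cells 10 or more receptors were found, and the most was 17. Receptor UMIs were uneven. The 388 cells with the most held 45.5% of them, and the 807 cells with 5 or more receptor UMIs (20.8%) held 69.6%, with a median of 5 different receptors. There is no gap at that limit, since 179 cells had 4 receptor UMIs and 162 had 5. The share with 2 or more receptors follows depth, and was 30.0% at 3000 UMIs per cell and 51.4% at 8000.

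**Figure D3:**
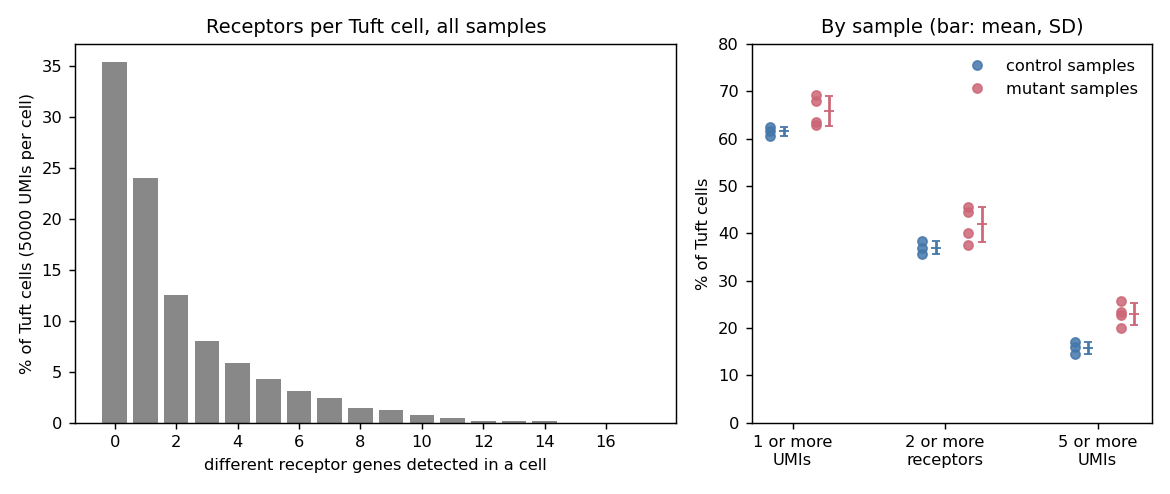
Left, the share of 3882 Tuft cells, each thinned to 5000 UMIs, by the number of different receptor genes found in the cell; 35.3% had none and the tail reaches 17. Right, the share of cells with a receptor UMI, with 2 or more receptors and with 5 or more receptor UMIs in each sample, with mean and SD per group; mutant samples lie above control samples for 5 or more UMIs.

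Receptor-rich Tuft cells were then counted in each sample. Cells with 5 or more receptor UMIs made up 14.6%, 17.1% and 16.01% of the Tuft cells of the control samples. They made up 25.6%, 23.4%, 20.1% and 22.9% of those of the mutant samples. The means were 15.9 ± 1.25% (SD, n = 3) against 23.0 ± 2.27% (SD, n = 4), with no overlap. Within those cells the receptor UMIs per cell were 8.75 ± 0.433 in control and 9.12 ± 0.194 in mutant samples, with overlap. In the remaining Tuft cells the receptors stood at 200 ± 3.36 and 209 ± 19.3 CPM. The receptor UMIs per receptor-rich cell also overlapped at 3000 UMIs per cell, at 7.27 ± 0.349 and 7.46 ± 0.185. They were higher in every mutant sample at 8000 UMIs per cell, at 10.7 ± 0.324 against 12.02 ± 0.827. The same held without thinning, at 14.4 ± 0.263 against 16.3 ± 1.04. The limit of 5 is itself set on receptor UMIs, and no gap lies there, so more receptor-rich cells and more receptor RNA in every cell cannot be told apart by these values. The share with any receptor UMI was 61.5 ± 0.964% in control and 65.8 ± 3.20% in mutant samples, also without overlap. That difference of 4.30 percentage points was 5.41 at 3000 UMIs per cell and 2.20 at 8000. Without thinning it was 3.13 and the groups overlapped, with control sample 3 at 80.4% and mutant sample 3 at 78.1%. Of the 27 members found in at least 50 thinned Tuft cells, 7 were found in a larger share of cells in every mutant sample (4.2% of all genes) and 0 in a smaller share (4.25%). Tas2r105 was found in 16.04 ± 0.994% and 22.8 ± 3.75% of cells, and Tas2r142-ps5 in 13.8 ± 0.893% and 19.4 ± 2.03%. The shares of these 27 members were tested by an exact permutation of the 7 samples over all 35 arrangements, two-sided on the absolute difference in means, where the smallest p possible is 0.0286. Tas2r142-ps5 reached that value, and Tas2r105 had an exact p of 0.0571. Tas2r142-ps5 was the only 1 of the 27 under 0.05 (2.22% of all genes were higher at that p and 2.62% lower), and after Benjamini-Hochberg adjustment over all 12798 genes 0 passed, with 0.591 for Tas2r142-ps5 and 0.649 for Tas2r105 in that permutation test. If the smaller tail is doubled instead, the smallest p possible is 0.0571.

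Detection of one bitter receptor went with detection of the others. Among the 801 thinned Tuft cells with Tas2r105, 25 of the 26 other receptors with at least 50 positive cells were found more often than among the 3081 cells without it, and 23 of them were so in all 7 samples. The median ratio of the shares was 4.71. Tas2r142-ps5 was found in 41.8% of cells with Tas2r105 and 11.5% of cells without it, Tas2r109 in 32.3% and 7.72%, and Tas2r104 in 24.1% and 2.21%. Over the 20 other receptors of the distal cluster the ratio had a median of 6.21 and ran from 1.82 for Tas2r123 to 15.9 for Tas2r130. With Tas2r118 as the anchor, found in 203 cells, 26 of 26 other receptors were found more often, but only 12 in all 7 samples. The median ratio was 3.12 there, and Tas2r145-ps3, at 1.32, was higher in 2 of 7 samples.

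Receptors elsewhere in the genome were also found more often with Tas2r105. Tas2r118, which lies far from the cluster on the same chromosome, was found in 14.6% of cells with Tas2r105 and 2.79% without it, a ratio of 5.23, higher in 7 of 7 samples. The proximal group was lower, with ratios of 1.63 for Tas2r108, 1.88 for Tas2r137 and 3.08 for Tas2r138. Tas1r1 on chromosome 4 had a ratio of 2.58, at 22.5% against 8.70%, again in 7 of 7 samples. These shares come from cells of the same 7 samples and are a description, with no p.

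Tas1r3 was the exception. It was found in 14.7% of cells with Tas2r105 and in 14.8% of cells without it, and was higher with it in 3 of 7 samples. Taken from the side of the 573 cells with Tas1r3, the ratio for the 26 other receptors had a median of 0.989 and ran from 0.642 to 1.47, and 0 of the 26 were higher in all 7 samples. Tas1r1, its partner in the amino acid receptor, was found in 10.8% of cells with Tas1r3 and 11.7% of cells without it, a ratio of 0.928. Its pattern thus differed from that of Tas1r1 as well as from that of the bitter receptors.

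**Figure D4:**
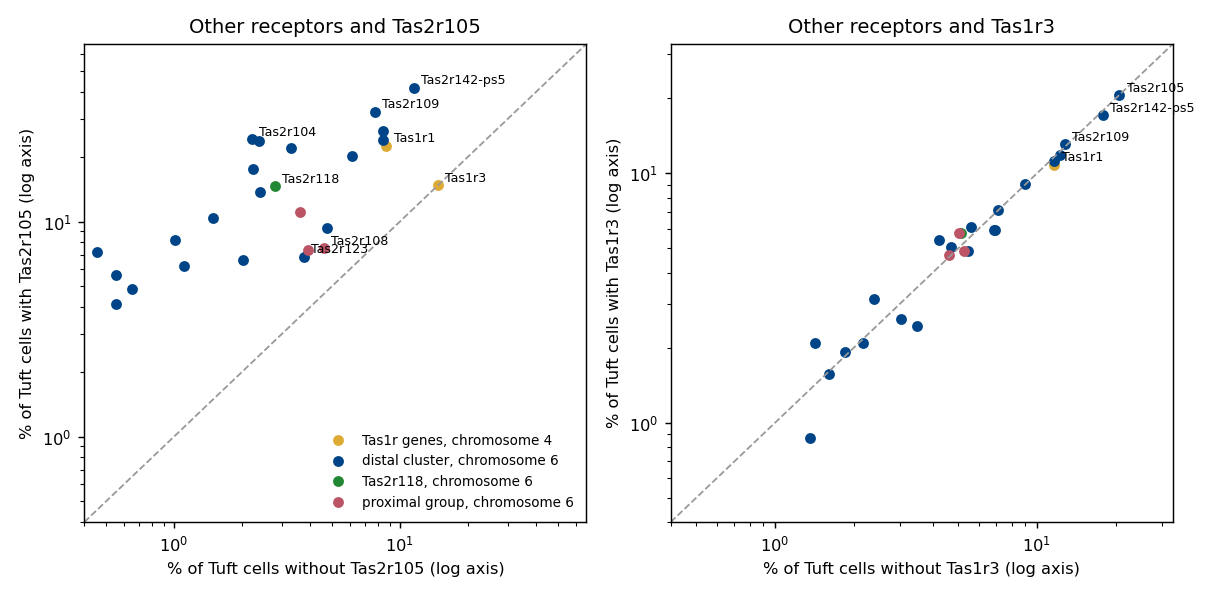
Each point is a receptor found in at least 50 thinned Tuft cells, with its share of cells that have the anchor receptor (vertical) against its share of cells that lack it (horizontal), both on log axes; the dashed line marks equal shares. For Tas2r105 (left) all receptors but Tas1r3 lie above the line, and for Tas1r3 (right) the receptors lie along it.

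Genes of the transduction chain differed in how they went with Tas2r105. Gnat3 stood at 4849.7 ± 375 CPM (SD, n = 7 samples) in Tuft cells with Tas2r105 and at 1427 ± 159 CPM in those without it, and Rgs21 at 1028 ± 177 against 183 ± 41.6 CPM. Gnb3 stood at 2488 ± 361 against 1017 ± 189 CPM, and each of these was higher in 7 of 7 samples. Itpr3, Plcb2 and Gng13 were also higher in 7 of 7 samples, with ratios of means of 3.20, 1.61 and 1.30. The ratio was 0.934 for Trpm5. Among other G protein subunits it was 0.951 for Gnai2, 1.05 for Gnb1 and 1.11 for Gna14. With Tas1r3 as the anchor the differences in Gnat3, Rgs21 and Gnb3 were smaller. Gnb3 stood at 1556 ± 352 against 1271 ± 260 CPM, higher in 7 of 7 samples. Gnat3 stood at 2312 ± 400 against 2081 ± 276 CPM and Rgs21 at 431 ± 121 against 336 ± 71.0 CPM, and these 2 genes, Gng13, Plcb2 and Trpm5 were higher in 6 of 7 samples. Cells with Tas1r1 lay between, with Gnat3 at 3716 ± 588 against 1911 ± 257 CPM. Trpm5, the channel at the end of the chain, stood at 604 ± 70.0 CPM with Tas2r105 and 646 ± 27.4 CPM without it. Dclk1, a kinase used as a tuft marker, stood at 931 ± 113 against 2565 ± 224 CPM for Tas2r105, and at 2332 ± 429 against 2223 ± 203 CPM for Tas1r3.

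Receptor-positive and receptor-negative Tuft cells were then compared over all genes, to see what else the positive cells share. Cells were thinned to 5000 UMIs, split within each of the 7 samples by whether any receptor UMI was found, summed, and tested with edgeR's quasi-likelihood test with the sample as a block. The receptors themselves were left out of the test, since they made the split. Of 9934 genes, 981 were higher in positive cells (9.88%) and 1216 were lower (12.2%) at an adjusted p of 0.05. Values below are mean CPM ± SD over 7 samples, and log2 fold changes are positive over negative.

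Genes of taste transduction rose with the receptors. Of 12 tested genes, 7 were higher, 0 were lower and 5 did not pass. Rgs21 rose from 56.1 ± 15.6 to 516 ± 113 CPM (log2 fold change 3.14, SE 0.089, adjusted p 6.19e-21). Gnat3 rose from 668 ± 86.4 to 2923 ± 383 CPM (2.10, SE 0.052, adjusted p 4.92e-22), and both were higher in 7 of 7 samples. Itpr3 rose by 1.25 (SE 0.11), Gnb3 by 1.13 (SE 0.039), Plcb2 by 0.63 (SE 0.051), Ric8b, a chaperone of G protein subunits, by 0.34 (SE 0.092) and Gng13 by 0.24 (SE 0.027). Trpm5 stood at 649 ± 40.5 CPM in positive and 619 ± 31.2 CPM in negative cells (0.04, SE 0.042, adjusted p 0.569). The call for Ric8b ended when cells were thinned to 3000 or 8000 UMIs and with DESeq2.

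Most genes of the tuft effector list, which holds enzymes and signals of tuft cells as well as receptors, moved the other way. Of 12 tested, 9 were lower in positive cells, 1 was higher and 2 did not pass. Alox5ap, needed for leukotriene synthesis, fell from 1558 ± 95.8 to 1047 ± 100.4 CPM (-0.61, SE 0.040, adjusted p 8.58e-13). The receptors Cysltr2 (-0.72), Il17rb (-0.65) and Il13ra1 (-0.43) fell, and so did the eicosanoid enzymes Ptgs1 (-0.48), Ltc4s (-0.26), Hpgds (-0.26) and Alox5 (-0.16) and the cytokine Il25 (-0.34). Chat, which makes acetylcholine, rose by 0.26 (adjusted p 0.00258). The call for Il25 ended at 3000 and 8000 UMIs and with another random draw, and those for Chat and Cysltr2 with DESeq2. The call for Alox5 ended in 7 of 16 alternatives, namely with DESeq2, with no filter on low counts, with the split by Tas2r or by Tas1r genes alone, and without control sample 2, mutant sample 1 or mutant sample 2.

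Tuft identity genes were divided. Of 15 tested, 3 were higher, 8 were lower and 4 did not pass. Dclk1 fell from 2878 ± 290 to 1885 ± 193 CPM (-0.64, SE 0.036, adjusted p 4.01e-14). Gfi1b (-0.58), Sh2d7 (-0.46), the keratin Krt18 (-0.41), Sh2d6 (-0.34), Sox9 (-0.20) and Vil1 (-0.73) also fell. The transcription factor Ascl2 rose by 0.55 (SE 0.095) and Lrmp by 0.40 (SE 0.032). Pou2f3 rose by 0.13 (SE 0.047, adjusted p 0.0413), and its call ended in 12 of 16 alternatives. The calls for Gfi1b and Vil1 ended with DESeq2, and that for Vil1 also at 8000 UMIs and without mutant sample 3.

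**Figure D5:**
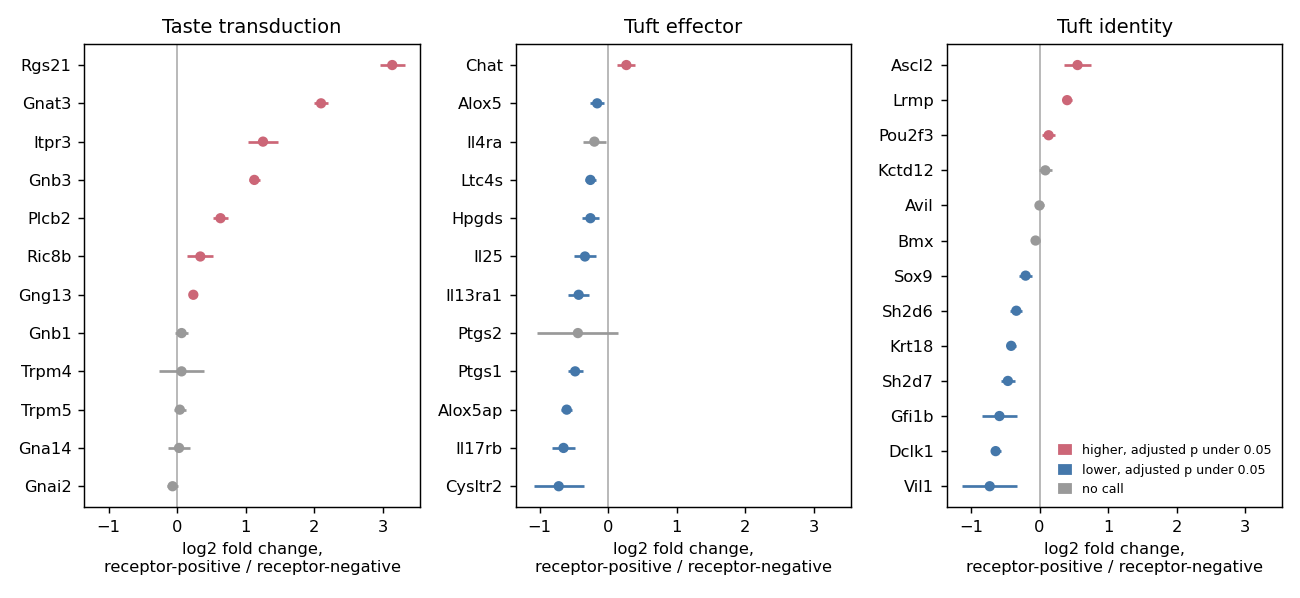
Log2 fold change (point) with 95% interval (line) between receptor-positive and receptor-negative Tuft cells for tested genes of the taste transduction, tuft effector and tuft identity lists; red marks genes higher and blue genes lower at an adjusted p of 0.05, and grey marks the others. Trpm5 lies near 0 while Rgs21 and Gnat3 lie at 3.14 and 2.10.

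Smaller lists gave single genes. Of 2 tested genes for receptor trafficking, Reep5 rose by 0.24 (SE 0.037, adjusted p 1.23e-05) and Rtp4 fell by 0.38 on the log2 scale (SE 0.13, adjusted p 0.0329), a call that ended with DESeq2, at 3000 UMIs, with the split by Tas2r or by Tas1r genes alone and on leaving out any sample but mutant sample 4. Rtp1, Rtp2 and Rtp3 had 0 UMIs in Tuft cells. Of 5 tested chemoreceptors of other families, Sucnr1, the succinate receptor of gut tuft cells, rose from 9.66 ± 6.13 to 20.2 ± 5.30 CPM (1.06, SE 0.20, adjusted p 0.000201), Cysltr2 fell as above, and 3 did not pass.

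The 10 genes with the largest rise that moved the same way in all 7 samples included Bex4 (8.16 ± 3.48 to 142 ± 70.5 CPM, 4.03, SE 0.14), its relative Bex1 (3.42, SE 0.26), the heparan sulfate enzyme Hs6st3 (10.2 ± 7.40 to 120 ± 37.3 CPM, 3.53, SE 0.16) and neuroglobin, Ngb (2.16 ± 1.91 to 22.7 ± 11.1 CPM, 3.39, SE 0.29). The other 6 were Gm12153 (4.00), Gm47760 (3.77), Gm20125 (3.71), Gm49965 (3.38), Gm45826 (3.28) and 4930500H12Rik (3.23). Of the 10, only Ngb (log2 fold change 1.28) and 4930500H12Rik (0.86) also passed edgeR's test between genotypes in Tuft cells (adjusted p 0.0207 each). In that test 5 of the 981 genes higher in positive cells passed, 5 of the 1216 lower ones, and 13 of all 14760. The fold change, mutant over control, was above 0 for 69.3%, 32.6% and 49.5% of these sets. The higher and lower genes were chosen by receptor detection in Tuft cells of these same samples, and the summed receptors differed between the groups. These shares are therefore not a result separate from that of the receptors. The 10 with the largest fall were lysozyme Lyz2 (-1.87), Cldn10 (-1.86), Cxcl2 (-1.75), Gsta4 (-1.72), Gp2 (-1.64), the carbonic anhydrase Car12 (-1.50), Wfdc17 (-1.46), Tinag (-1.45), Scgb1a1 (-1.37) and Lrrc3b (-1.37).

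Markers of other cell types were lower in receptor-positive cells for several lists. All 3 tested microfold genes fell, with Gp2 from 597 ± 123 to 202 ± 58.8 CPM, Spib by 0.39 and Sox8 by 1.16 on the log2 scale, and the list of 7 summed to 436 to 655 CPM in positive and 851 to 1180 CPM in negative cells. Both tested secretory genes, Scgb1a1 and Bpifa1 (-0.74), fell, and the list of 6 summed to 91.1 to 185 against 110 to 362 CPM. All 3 tested myeloid or B cell genes fell, namely Lyz2, Ptprc (-1.03) and Cd74 (-0.48), and the list of 7 summed to 281 to 428 against 460 to 616 CPM. Of that list 1 gene, Ptprc, was highest in the Tuft class among the annotated classes, so it does not set other cells apart here. Of the Aire-stage list, Fezf2 (-0.51) and H2-Aa (-0.62) fell of 4 tested, and its 6 genes summed to 146 to 203 against 184 to 253 CPM, the call for Fezf2 ending in 7 of 16 alternatives. Of the ciliated list Dnah5 fell (-0.59) and Rsph1 rose (0.51), and its 5 genes summed to 115 to 209 against 130 to 230 CPM. The calls for Bpifa1 and Rsph1 ended with DESeq2. Of 3 immature and 3 keratinocyte genes tested 0 passed, the lists summing to 56.0 to 78.8 against 55.9 to 87.7 CPM and to 57.6 to 95.7 against 55.0 to 90.9 CPM. No gene of the neuroendocrine or thymocyte lists passed the filter on low counts, and these summed to 12 to 57.3 against 12.4 to 447 CPM and to 1.99 to 9.60 against 0.833 to 7.09 CPM. No gene of the microfold, secretory, ciliated, keratinocyte, neuroendocrine or Aire-stage lists was at 0 in either set of cells. Csf1r and Itgax of the myeloid list were at 0 in receptor-negative cells, and Rag1 of the thymocyte list was at 0 in both sets. The part of these markers in the comparison was not tested.

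The choice of receptors that defined a positive cell mattered. In a split by 1 family all other Tuft cells counted as negative, including those with UMIs of the other family only. The negative cells of the Tas1r split thus held cells with Tas2r UMIs, and its positive cells pooled Tas1r1 and Tas1r3. The part of this in the differences between the splits was not tested. With Tas2r genes alone, Gnat3 rose by 2.10 (SE 0.042) and Rgs21 by 2.87 (SE 0.10), and 4 of the named or listed calls were lost, those for Alox5 (adjusted p 0.062), Rtp4 (0.0707), Pou2f3 (0.11) and Fezf2 (0.13) by edgeR's test. With Tas1r genes alone, Gnat3 rose by 0.57 (SE 0.043) and Rgs21 by 1.01 (SE 0.056), Dclk1 fell by 0.31 in place of 0.71 on the log2 scale, and 644 genes passed in all. Under that split 21 of the named or listed calls were lost, those for Gng13, Ric8b, Ascl2, Gfi1b, Vil1, Ltc4s, Hpgds, Cysltr2, Il13ra1, Sox9, Spib and Rsph1 among them, and Reep5, Chat and Bpifa1 changed sign.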

How the data were processed

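Cells were from 7 hash-tagged thymus samples (3 control, 4 mutant), sequenced in 1 run with 10x 3′ v3.1 chemistry, per the labels' protocols. The deposited gene table holds raw UMI counts of genes and hash tags per barcode, made by the authors with Cell Ranger against mm10 (version 6.1.0 per the submitters' processing notes, 7.0.0 per the file header), and Seurat 4.0.2 is named in those notes. The deposited annotation gives each of 9185 barcodes a class and a sample, and was used as given. No doublet caller was run here. Cells whose main hash tag named another sample, or whose second tag held at least 20% of hash UMIs, were left out in an alternative.

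Counts were summed per sample and class and tested with edgeR 4.0.16 (quasi-likelihood, filterByExpr, TMM, R 4.3.3), DESeq2 1.42.0 being an alternative. P-values were adjusted by the Benjamini-Hochberg method over all genes tested, at 0.05. Statistics per cell used cells thinned to 5000 UMIs (seed 1). CPM is relative to all gene UMIs of the cells summed. Binomial intervals are exact (Clopper-Pearson, 95%), and the limit for a count of 0 is 3 counts per class total. Gene positions are from GENCODE M21, promoters from RefSeq (GRCm38.p6). Identity was computed with Biopython 1.88. The scripts were tested on simulated data.

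The members and lists were chosen with earlier results of these data known. Named genes were every member, the genes of the fixed lists that were called, with 6 transduction or identity genes (Gnat3, Gng13, Plcb2, Itpr3, Trpm5, Pou2f3) always, the 10 called genes with the largest rise and the 10 with the largest fall among those moving the same way in all 7 samples with at least 100 UMIs, and the 5 genes most like the summed receptors over classes. The library of hash tags alone was not used apart from the tags in the table. The values of 1 gene of the Tuft identity list are not reported here, though it stays in that list's counts and sums.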

Additional observations from a re-analysis of the deposited data

Results flagged for a closer look

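Tas2r125, a bitter receptor of the distal cluster, stood at 1.26 CPM in the Tuft cells of mutant sample 3, while the other 3 mutant samples stood at 2.01 to 2.11 CPM, a gap of 0.888 of the group's range. It was the only one of 40 groups of 4 values tested in which a sample stood this far apart, and chance gives about 1 in 20. With 85 UMIs of this gene in all Tuft cells, the value rests on few UMIs. The deposited matrix also holds 8904 barcodes to which the authors gave no class. They held 23977 receptor UMIs at 243.9 CPM, against 225.6 CPM in the annotated cells, and 36.8% of them had a receptor UMI at a median depth of 5452.5 UMIs. They were used in no comparison.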

How the results depend on the processing

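The count of members called in Tuft cells, 0 by edgeR, was 3 with DESeq2, 8 with no filter on low counts, 2 without cells of mixed hash-tag pattern and 0 to 1 on leaving out each sample. Deviations of same-numbered samples correlated at 0.132, 0.0964 and -0.113, within the range of -0.168 to 0.205 of differently numbered ones. A fit with the replicate number as a block called 0 members in Tuft cells (19 genes, 0.129%) and 0 in all cells (7 genes, 0.033%), with Tas2r123 at 0.14. The log2 fold change of Tas2r123 was also 0.0057 without the filter and 0.027 without cells of mixed hash-tag pattern, where Tas2r136 was -0.013. On leaving out each sample the fold change ran from -0.11 to 0.12 for Tas1r3, -0.070 to 0.23 for Tas2r108, -0.077 to 0.21 for Tas2r136, -0.16 to 0.14 for Tas2r123 and -0.040 to 0.31 for Tas2r110 and changed sign in each.

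Of the split of Tuft cells by receptors, DESeq2 called 1070 genes and the split by Tas1r genes alone 644, against 2197, and leaving out samples gave 1806 to 2106. Under the Tas1r split Reep5 was -0.047, Chat -0.032 and Bpifa1 0.11. A split of cells with 5 or more receptor UMIs against cells with 0, chosen after the data were seen, called 2991. The share of Tuft cells with 2 or more receptors was 30.0% at 3000 UMIs and 51.4% at 8000, and so follows depth. The split by Tas2r genes alone lost 4 of the named or listed calls. The difference between genotypes in the share of Tuft cells with a receptor UMI, 4.30 percentage points, was 2.20 at 8000 UMIs, where the groups overlapped. The causes of these changes were not tested.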

Other observations

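The distal cluster also holds genes that are not named as taste receptors. A630073D07Rik (chr6:132625111-132651526), annotated as protein coding and lying among the Tas2r genes, had 36756 UMIs in Tuft cells, more than all receptors together, and 38432 in all cells. It rose from 395 ± 81.5 CPM in receptor-negative to 837 ± 114 CPM in receptor-positive Tuft cells (log2 fold change 1.06, SE 0.054, adjusted p 4.28e-15 by edgeR's quasi-likelihood test), and stood at 0.08 between genotypes (adjusted p 0.924). The unprocessed pseudogenes Gm18690 (chr6:133017394-133018378) and Gm18691 (chr6:133086487-133087888) had 1816 and 1664 UMIs in Tuft cells. They rose from 10.1 ± 2.31 to 46.4 ± 9.23 CPM (2.20, SE 0.16) and from 8.90 ± 5.72 to 45.4 ± 12.2 CPM (2.41, SE 0.19) with the receptors (SD, n = 7). Gm18690 shares 92.4% of its aligned sequence with Tas2r117 and 230 stretches of 91 bases, so UMIs of these genes may be split between them. These genes were singled out for their place in the cluster after the data were seen.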
